A study of Rattus norvegicus with 12 samples.

Results

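The AP-1 subunits examined here are the transcripts of Fos, Fosb, Fosl1, Fosl2, Jun, Junb, Jund and Atf3 in rat spinal cord, taken at lumbar segments L3 to L5. Members were taken by gene symbol from the deposited gene expression table, which paired 7 of the 8 symbols with a row, of 23526 genes in all, and all 7 passed the filter on low counts. The level of Junb was not analysed here. Bulk RNA sequencing covered 3 libraries each from rats with spinal cord injury (SCI) at day 3, day 7 and day 14 and 3 libraries from sham rats at day 0. The labels state no strain, age, sex, injury level or kind of injury, and sham was sampled at day 0 alone. Nothing in them says that a group's libraries are separate animals, so the p-values reflect only how far these libraries spread, which may be technical.

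AP-1 is a family of transcription factors that bind DNA as pairs through a basic region and a leucine zipper. Fos proteins need a Jun partner, Jun proteins can also pair with each other, and ATF family members such as Atf3 pair with Jun or among themselves. Fos and Fosb are immediate early genes that cells transcribe within minutes of a stimulus, Jund is made continuously in many cells, and Atf3 and Jun are known as genes that neurons switch on when their axons are cut. In spinal cord tissue these genes are also used by reactive glia, blood vessels and phagocytes.

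Library totals ran from 63.0 to 79.1 in units of 1e+06 counts, and libraries of a group differed in tissue makeup. Levels are given as CPM, counts per 1e+06 of a library after TMM scaling. The summed level of 7 neuron markers was 211 CPM in replicate 1 of SCI day 3, 1835 CPM in replicate 2 and 174 CPM in replicate 3, against 1859 to 2686 CPM in sham. Motor neuron markers (4 of 5 were in the table) summed to 4.67 and 2.93 CPM in replicates 1 and 3 of that day, with 2 and 1 of the 4 at 0 counts, while replicate 2 had 89.3 CPM and sham had 105 to 146 CPM. The 7 markers of sensory ganglion neurons, cells that lie outside the cord, summed to 305 and 512 CPM in replicates 1 and 2 of SCI day 14, and to 106 CPM in replicate 2 of SCI day 3. They stayed at or below 14.6 CPM elsewhere. The 5 Schwann cell markers summed to 9597 to 42763 CPM at SCI day 3 and 4716 to 37951 CPM in sham, where replicate 2 was the highest. In bulk tissue, a change in the number of cells of a type and a change in RNA per cell cannot be told apart.

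Promoter sequences from RefSeq (build GRCr8) were matched by symbol for 5 of the 8 members, Fosb, Fosl1, Fosl2, Junb and Jund. Those of Fos, Jun and Atf3 were not searched. Of the 5, Fosb had the largest fold change at day 3, Jund stayed above sham on every day, and edgeR called Fosl1 in no comparison. The windows of Fosb, Jund and Fosl1 are shown. Each runs 5′ to 3′ on the gene's own strand from 250 bases before to 50 bases after the annotated start, and capitals mark matches, on either strand, to TGACG, the first bases of the cyclic AMP response element TGACGTCA.
Fosb: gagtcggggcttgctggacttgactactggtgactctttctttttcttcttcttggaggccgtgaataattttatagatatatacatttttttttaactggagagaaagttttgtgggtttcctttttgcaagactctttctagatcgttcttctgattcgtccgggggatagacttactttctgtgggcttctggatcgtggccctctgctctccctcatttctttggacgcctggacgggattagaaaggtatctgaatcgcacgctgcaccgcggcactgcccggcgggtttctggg
Jund: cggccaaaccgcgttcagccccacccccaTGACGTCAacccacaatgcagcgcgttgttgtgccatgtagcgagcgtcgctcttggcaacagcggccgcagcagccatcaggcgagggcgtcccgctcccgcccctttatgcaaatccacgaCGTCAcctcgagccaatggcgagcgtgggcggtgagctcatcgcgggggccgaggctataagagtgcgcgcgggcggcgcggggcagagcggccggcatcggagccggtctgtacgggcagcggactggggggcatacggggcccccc
Fosl1: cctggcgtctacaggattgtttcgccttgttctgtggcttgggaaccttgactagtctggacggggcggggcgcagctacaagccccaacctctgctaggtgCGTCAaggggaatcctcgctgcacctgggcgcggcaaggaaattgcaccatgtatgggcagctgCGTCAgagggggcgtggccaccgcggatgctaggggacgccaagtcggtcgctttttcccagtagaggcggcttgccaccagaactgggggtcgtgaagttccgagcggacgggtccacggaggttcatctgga
These windows lie at chr1:88089135-88089434 (minus strand, Fosb), chr16:18769722-18770021 (minus strand, Jund) and chr1:212183635-212183934 (plus strand, Fosl1). The full element TGACGTCA was found in the Jund window, at positions -221 to -214 from the start, and in 1.83% of 33465 promoter windows of 300 bases. Because that element reads the same on both strands, it holds a match to TGACG on each of them. TGACG alone also lay at positions -98 to -94 of the Jund window and at -148 to -144 and -84 to -80 of the Fosl1 window, on the minus strand in each case. It lay at -155 to -151 of the Junb window on the plus strand. In all, TGACG was found in 3 of the 5 windows and in 21.2% of all windows. TGACTCA, the motif to which Fos and Jun pairs bind best, was in 0 of the 5 windows and in 4.63% of all windows, and the CArG box, the binding motif of serum response factor, in 0 of the 5 and in 1.64% of all. Fos, Jun and Atf3 are not among these 5, and a match to letters is a description and not a shown binding site.

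At SCI day 3 the AP-1 subunits were higher than in sham, from 1.79-fold for Jund to 16.3-fold for Fosb. Fos, Fosb, Fosl2, Jun, Jund and Atf3 rose, 6 of the 7 subunits, where 5.50% of 18714 genes tested were called higher and 1.20% lower by edgeR's quasi-likelihood test (limit of 0.05 on the p adjusted by Benjamini and Hochberg). Fosl1 was not called at that limit. Their median log2 fold change was 2.63, against 0.03 over all genes tested. All 3 SCI day 3 libraries lay above all 3 sham libraries for 7 of the 7 subunits, an arrangement that held for 19.0% of all genes tested. Markers of other cells differed between the same groups. Of 4 endothelium markers 3 rose, with summed levels of 409 to 1175 CPM at SCI day 3 and 183 to 280 CPM in sham. Of 5 astrocyte markers 3 fell, with 1818 to 5425 CPM at SCI day 3 and 2570 to 4693 CPM in sham. Those that fell were Aqp4, Aldh1l1 and Gja1, whereas Gfap averaged 3056 CPM at SCI day 3 and 1893 CPM in sham, without a call. The 5 microglia and macrophage markers had a median log2 fold change of 1.71 without a call by edgeR, with 148 to 543 CPM at SCI day 3 and 112 to 148 CPM in sham. Their part in the subunits' levels was not tested. The 3 SCI libraries lay above sham for 3 of the 7 at day 7 and for 5 of the 7 at day 14, as they did for 12.8% and 9.37% of all genes. In those comparisons edgeR called 0 of the 7, and 0.0160% of all genes as higher on each day. Between SCI days it called 0 of the 7 and 0 of all genes.

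The 4 Fos family subunits differed in how far and how evenly they stood above sham. Fos (ENSRNOG00000008015, chromosome 6), the prototype of the family, measured 111, 100.1 and 121 CPM in SCI day 3 replicates 1, 2 and 3, against 18.1, 18.4 and 16.9 CPM in the sham libraries. The groups did not overlap, and the SCI day 3 libraries lay within 1.21-fold of each other. Fos rose by 2.63 ± 0.43 on the log2 scale at day 3 (SE, n = 3 each; edgeR adjusted p = 0.0324). On day 7 its SCI replicates measured 22.6, 51.7 and 89.0 CPM and at SCI day 14 24.1, 49.2 and 28.3 CPM. All 9 SCI libraries were thus above the highest sham library, although the day 7 libraries spanned 3.93-fold. The log2 fold changes over sham were 1.61 ± 0.42 at day 7 and 0.93 ± 0.41 at day 14 (SE; edgeR adjusted p = 0.253 and 0.670), neither of which passed.

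Fosb (ENSRNOG00000046667, chromosome 1), a close relative of Fos whose truncated form ΔFosB is known for its long life in neurons, measured 24.5, 30.1 and 27.6 CPM in SCI day 3 replicates 1, 2 and 3, against 0.923, 2.51 and 1.61 CPM in sham. It was the only subunit with its highest day 3 value in replicate 2, the library with neuron markers near the sham range. Fosb rose by 4.03 ± 0.42 on the log2 scale (SE, n = 3 each; edgeR adjusted p = 0.00534), which ranked it sixth by p among 18714 genes. Its SCI day 7 libraries measured 2.04, 2.70 and 2.83 CPM, a range that overlapped sham, and those of SCI day 14 2.49, 6.05 and 4.39 CPM. The log2 fold changes over sham were 0.59 and 1.36 (edgeR adjusted p = 0.668 and 0.553). Counts per gene do not separate the full length form from the truncated form.

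Fosl2 (ENSRNOG00000068412, chromosome 6), the Fra-2 protein of later responses, measured 67.7, 33.6 and 104 CPM in SCI day 3 replicates 1, 2 and 3, against 6.98, 11.7 and 6.92 CPM in sham. The groups did not overlap, and replicate 3 had 3.11 times the level of replicate 2. Fosl2 rose by 3.00 ± 0.63 on the log2 scale (SE, n = 3 each; edgeR adjusted p = 0.0358). By SCI day 7 it measured 11.6, 26.1 and 60.8 CPM, with the lowest library just under the highest sham library, and at SCI day 14 18.1, 41.8 and 23.4 CPM, all above sham. The log2 fold changes were 1.94 and 1.70 (edgeR adjusted p = 0.341 and 0.609). Fosl1 (ENSRNOG00000020552, chromosome 1), the Fra-1 protein, measured 75.3, 62.6 and 135 CPM at SCI day 3, against 36.8, 51.4 and 45.5 CPM in sham. Its groups did not overlap, and its log2 fold change was 1.03 ± 0.29 (SE, n = 3 each; edgeR adjusted p = 0.0554). On the later days its values overlapped those of sham, with 42.8, 38.2 and 58.5 CPM at SCI day 7 and 36.4, 32.99 and 46.9 CPM at SCI day 14. SCI day 7 replicate 3 lay above the sham range and SCI day 14 replicates 1 and 2 lay below it. Its log2 fold changes were 0.06 and -0.20, with edgeR adjusted p = 0.957 and 0.904.

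**Figure D1:**
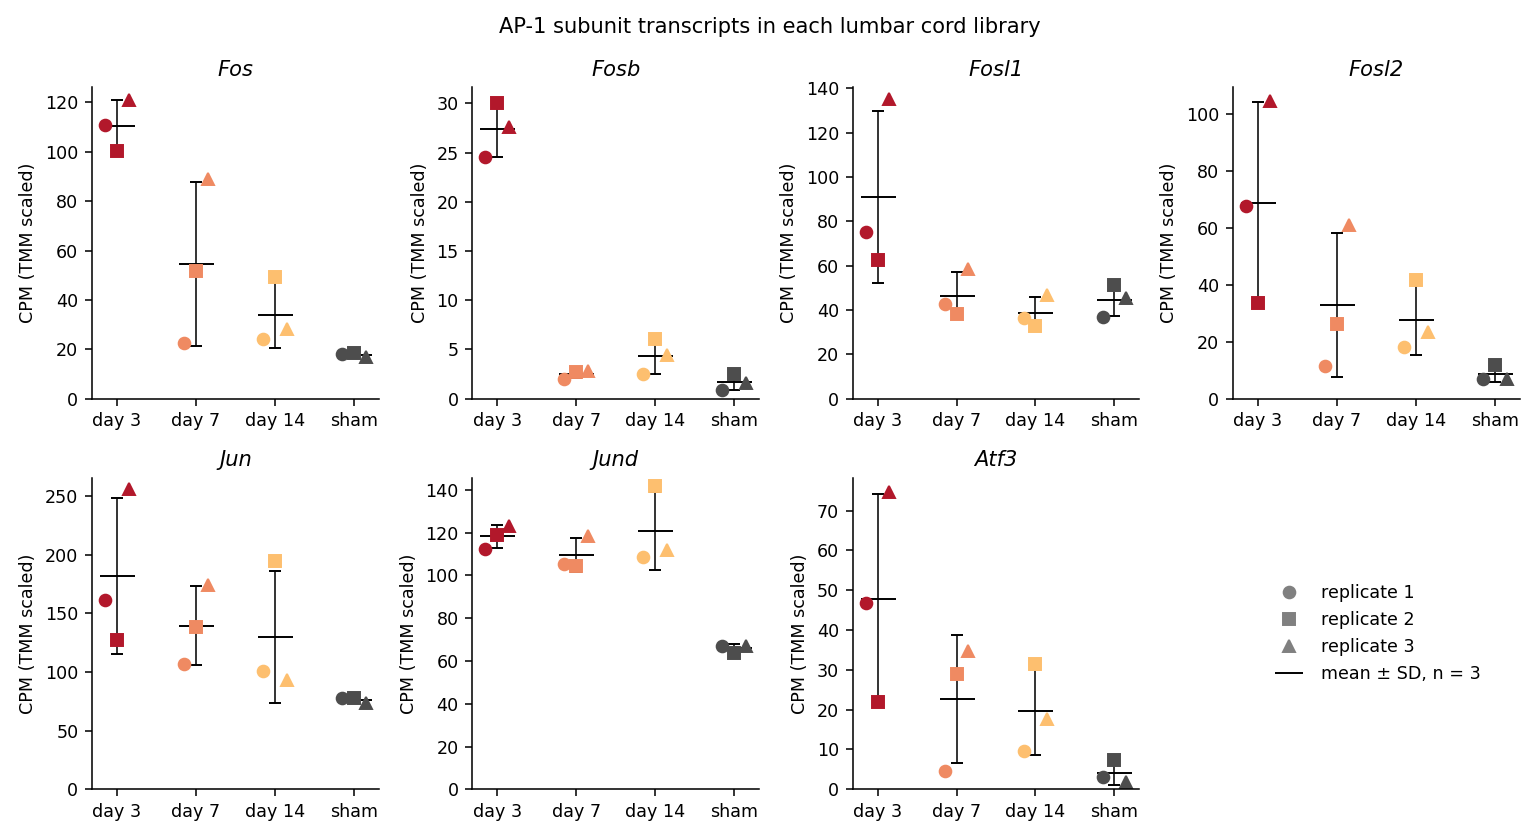
CPM of each AP-1 subunit (vertical axis, TMM scaled, from 0) in the 12 libraries by group, with bars for the mean ± SD of 3 libraries. The SCI day 3 libraries lay within 1.09-fold of each other for Jund, 1.21-fold for Fos and 1.23-fold for Fosb, and spread from 2.01-fold for Jun to 3.41-fold for Atf3 in the other subunits.

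Of the Jun family, Jun (ENSRNOG00000026293, chromosome 5), the main partner of Fos proteins, measured 161, 128 and 256 CPM in SCI day 3 replicates 1, 2 and 3, against 77.7, 77.5 and 73.8 CPM in sham. The sham libraries lay within 1.05-fold of each other and the SCI day 3 libraries within 2.01-fold. Jun rose by 1.25 ± 0.33 on the log2 scale (SE, n = 3 each; edgeR adjusted p = 0.0492), just inside the limit. Its replicates measured 106, 138 and 174 CPM at SCI day 7 and 101, 194 and 93.5 CPM at SCI day 14, all above the highest sham library. The log2 fold changes over sham were 0.87 and 0.77 (edgeR adjusted p = 0.416 and 0.652).

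Jund (ENSRNOG00000019568, chromosome 16), a Jun protein that is made without a stimulus, gave the most even values of the 7. It measured 113, 119 and 123 CPM in SCI day 3 replicates 1, 2 and 3, against 67.2, 63.9 and 66.9 CPM in sham. Jund rose by 0.84 ± 0.13 on the log2 scale (SE, n = 3 each; edgeR adjusted p = 0.0324). The SCI day 7 libraries measured 105, 104.6 and 119 CPM and those of SCI day 14 108, 142 and 112 CPM. The log2 fold changes over sham were 0.73 ± 0.13 at day 7 and 0.87 ± 0.13 at day 14, against 0.84 at day 3, with edgeR adjusted p = 0.144 and 0.127. They stood 21st and 6th by p among the 18714 genes, in comparisons in which edgeR called 0.0160% of all genes higher at each of days 7 and 14. DESeq2 and limma voom called Jund at day 7 (adjusted p = 8.46e-06 and 0.0135) and at day 14 (adjusted p = 5.61e-08 and 0.0234).

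Atf3 (ENSRNOG00000003745, chromosome 13), a stress-induced factor that can repress or activate its targets, measured 46.8, 21.8 and 74.5 CPM in SCI day 3 replicates 1, 2 and 3, against 3.00, 7.28 and 1.73 CPM in sham. The groups did not overlap, and Atf3 rose by 3.57 ± 0.85 on the log2 scale (SE, n = 3 each; edgeR adjusted p = 0.0405). Its highest sham value was in replicate 2, where Schwann cell markers summed to 37951 CPM against 4716 and 5972 CPM in sham replicates 1 and 3. Neutrophil, erythrocyte and fibroblast markers were also highest in sham replicate 2 among the sham libraries, at 40.2, 55.1 and 1831 CPM. The part of RNA from these cells in the Atf3 value was not tested. In the SCI day 7 libraries Atf3 measured 4.52, 28.9 and 34.7 CPM, so that replicate 1 lay inside the sham range and the others above it. At SCI day 14 it measured 9.58, 31.5 and 17.7 CPM, all above sham. The log2 fold changes were 2.50 ± 0.81 and 2.29 ± 0.80 (SE; edgeR adjusted p = 0.356 and 0.609). Sensory ganglion markers summed to 305, 512 and 14.6 CPM in SCI day 14 replicates 1, 2 and 3, against 10.3 to 11.7 CPM in sham, and their part in the Atf3 values was not tested.

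**Figure D2:**
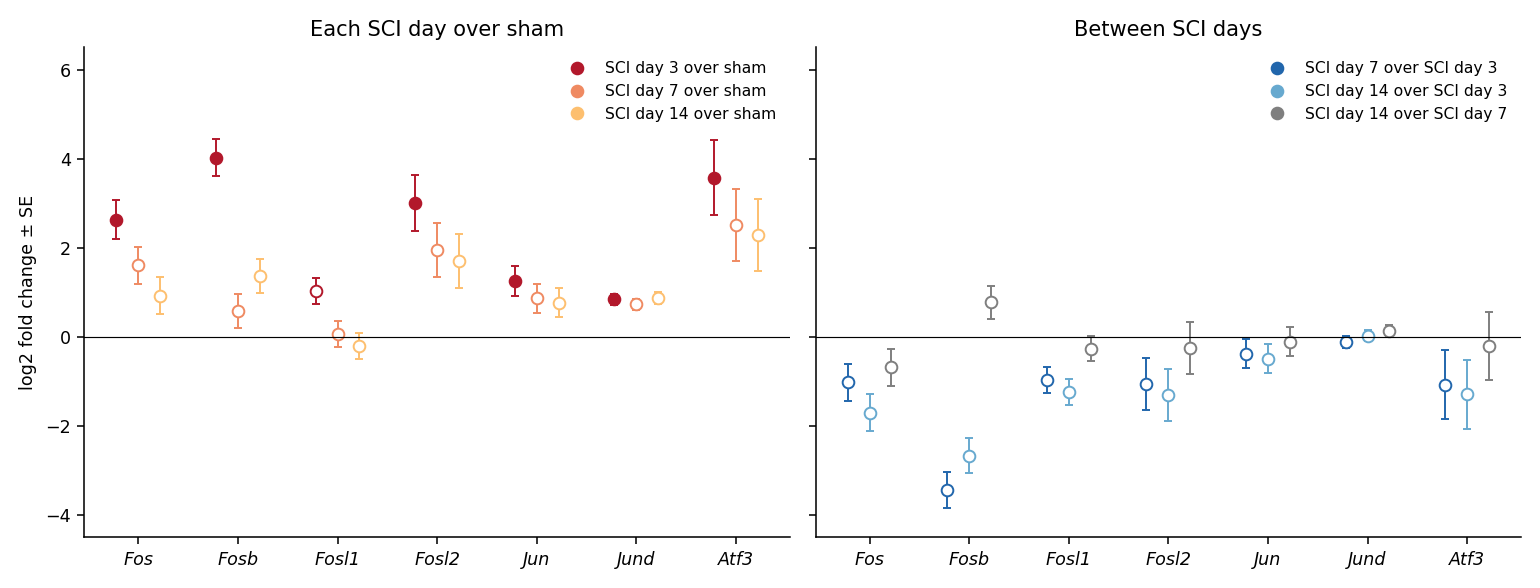
Log2 fold change ± SE of each subunit, for each SCI day over sham (left) and between SCI days (right). Filled points passed edgeR's adjusted p limit of 0.05 and open points did not; the 6 filled points all belong to SCI day 3 over sham.

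The day 3 calls depended on which libraries entered the fit, as the calls over all genes did. Without SCI day 3 replicate 2 edgeR called 7 of the 7 subunits, and 7087 genes in all. Without SCI day 3 replicate 1 or replicate 3, sham replicate 1, SCI day 7 replicate 2 or SCI day 14 replicate 3 it called only Fosb, and between 6 and 18 genes in all. Without sham replicate 3 it called 0 subunits and 1 gene in all, and without sham replicate 2 it called 3 (Fos, Fosb and Jund) and 524 genes in all. It called 5 without SCI day 7 replicate 1 and 5 without SCI day 14 replicate 2, with 749 and 647 genes in all. It called 4 without SCI day 7 replicate 3 and 4 without SCI day 14 replicate 1, with 729 and 557 genes in all. Fosb was called in 11 of these 12 fits, Fos and Jund in 6, Fosl2 in 5, Jun and Atf3 in 2 and Fosl1 in 1. The direction was the same for the 7 subunits in all 12 fits, with log2 fold changes of 3.73 to 4.43 for Fosb, 2.56 to 2.70 for Fos, 2.57 to 3.33 for Fosl2, 3.10 to 4.33 for Atf3, 0.92 to 1.45 for Jun, 0.81 to 0.87 for Jund and 0.63 to 1.24 for Fosl1. A fit with SCI day 3 replicate 2 as the only day 3 library assumes for it the spread of the other groups. Its calls are not given. Across 22 settings other than the main fit, this one included, the day 3 log2 fold changes stayed above 0. The lowest was 0.49, for Fosl1.

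DESeq2 and limma voom with sample weights called 7 of 7 at day 3, where they called 5150 and 6232 genes in all. For SCI day 7 edgeR called 0 of 7, with 5 at an unadjusted p under 0.05, as 9.89% of all genes were. DESeq2 called Fos, Fosl2, Jund and Atf3 there, among 512 genes in all, and voom called Jund, among 276. At SCI day 14 edgeR called 0 of 7, with 6 at an unadjusted p under 0.05, as 7.40% of all genes were. DESeq2 and voom each called Jund there, among 207 and 9 genes in all. Fos, Jun and Jund were higher in all 9 SCI libraries than in all 3 sham libraries, which was so for 3.86% of all genes tested. In the test of the 4 groups together edgeR called Fosb (adjusted p = 0.0140) and 0.0427% of all genes.

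Between SCI days, 7 of the 7 subunits had lower means at day 7 than at day 3, without a call by edgeR, which called 0 of all genes in any comparison between days. Fosb averaged 2.52 ± 0.421 CPM at SCI day 7 and 27.4 ± 2.79 CPM at SCI day 3 (SD, n = 3 each). Its log2 fold change of -3.44 ± 0.41 (SE; edgeR adjusted p = 0.106) had the smallest p of the 18714 genes in that comparison, and DESeq2 and voom called it (adjusted p = 7.75e-14 and 0.0114), among 241 genes and 1 gene in all. Fos averaged 54.4 ± 33.3 CPM at SCI day 7 and 111 ± 10.4 CPM at SCI day 3 (SD, n = 3 each), with a log2 fold change of -1.02 at edgeR adjusted p = 0.324. Fos, Fosb and Fosl1 did not overlap between those days, each lower at day 7, as 7.69% of all genes were. Of the 7 subunits, 3 had an unadjusted p under 0.05 there with edgeR, as did 14.8% of all genes.

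At SCI day 14 the same 3 subunits lay below SCI day 3 in every library, as did 9.43% of all genes. Fosb averaged 4.31 ± 1.78 CPM at SCI day 14 and 27.4 ± 2.79 CPM at SCI day 3, with a log2 fold change of -2.67 ± 0.40 (SE, n = 3 each; edgeR adjusted p = 0.144). For Fos and Fosl1 the values were -1.71 and -1.23, each at edgeR adjusted p = 0.188. DESeq2 called these 3, among 1096 genes in all, and voom called 0 genes. With edgeR, 3 of the 7 had an unadjusted p under 0.05, as did 17.9% of all genes. Without SCI day 3 replicate 2 edgeR called Fos, Fosb and Fosl1 at day 14 and Fosb and Fosl1 at day 7 against day 3, with 4342 and 3605 genes called in all. For Jund they were -0.11 at day 7 and 0.03 at day 14 against day 3, at edgeR adjusted p = 0.650 and 0.908. Between SCI day 14 and SCI day 7, 0 of the 7 passed by edgeR, DESeq2 or voom, and 0 had an unadjusted p under 0.05 with edgeR.

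The subunits' levels were set side by side as the authors' FPKM, which scale counts by gene length. In sham the order by mean was Jund with 37.1 ± 0.578, Jun with 15.9 ± 0.533, Fosl1 with 11.8 ± 2.21, Fos with 10.6 ± 0.544, Atf3 with 0.859 to 3.69 over its libraries, Fosl2 with 1.56 ± 0.537 and Fosb with 0.422 ± 0.209 FPKM (SD, n = 3). Fosl1 and Fos overlapped, as did Atf3 and Fosl2, and the other neighbours in that order did not. At SCI day 3 Jund and Fos led with 68.2 ± 1.27 and 67.3 ± 4.80 FPKM, and their libraries overlapped. Jun followed with 38.7 ± 12.8, Fosl1 with 24.6 ± 9.52, Atf3 with 24.1 ± 12.6, Fosl2 with 12.7 ± 6.19 and Fosb with 7.08 ± 0.706 FPKM, and Fos and Jun were the only neighbours that did not overlap. At SCI day 7 Jund was again alone at the top with 63.2 ± 4.95 FPKM, above Fos with 33.4 ± 20.5 FPKM. At SCI day 14 Jund had 69.6 ± 10.4 FPKM and Jun 27.8 ± 11.8 FPKM, with no overlap. Fosb was last in all 4 groups.

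The pool of these 7 transcripts, as their summed FPKM in each library, was 202 to 289 at SCI day 3, 110 to 206 at SCI day 7 and 115 to 187 at SCI day 14, against 75.5 to 84.8 in sham. The 4 Fos family genes held 46.1 ± 0.472% of it at SCI day 3, against 30.6 ± 2.26% in sham (SD, n = 3 each). In the SCI day 3 libraries this share was 46.4%, 46.2% and 45.5%. Fos alone held 28.1 ± 3.25% at SCI day 3 against 13.3 ± 0.473% in sham, and Fosl1 held 9.89 ± 2.03% against 14.9 ± 1.997%. Jund held 28.7 ± 5.44% at SCI day 3 against 46.8 ± 3.08% in sham. The Fos family share was 31.9 ± 7.68% at SCI day 7 and 25.8 ± 1.58% at SCI day 14. Junb is not part of these sums, and no test was run on the shares.

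**Figure D3:**
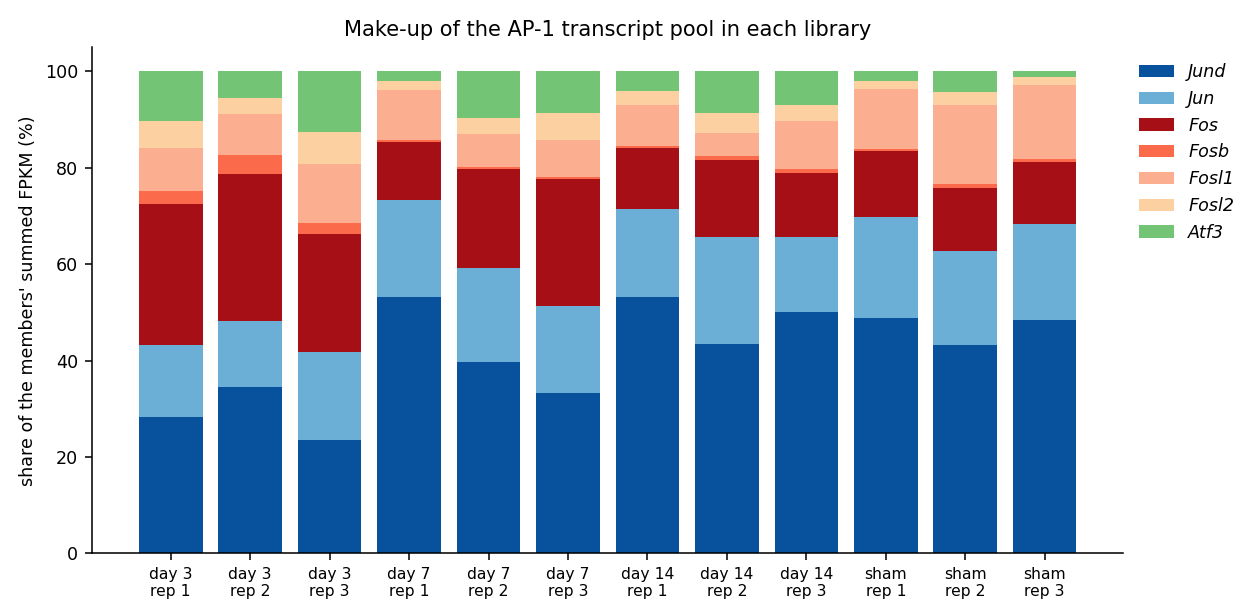
Share of each subunit (percent, vertical axis) in the summed FPKM of the 7 AP-1 transcripts, for each of the 12 libraries. The blue part (Jund and Jun) was 43.2%, 48.2% and 41.8% in the SCI day 3 libraries, against 62.7% to 69.7% in sham.

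Within groups, most subunits were highest in the same library. Replicate 3 was the highest for 6 of 7 at SCI day 3 and for 7 of 7 at SCI day 7, and replicate 2 was the highest for 6 of 7 at SCI day 14 and for 5 of 7 in sham. The exceptions were Fosb at SCI day 3, Fosl1 at SCI day 14, and Jun and Jund in sham. Schwann cell markers moved in part with this order and were highest in replicate 3 of SCI day 3 (42763 CPM), replicate 3 of SCI day 7 (14195 CPM) and replicate 2 of sham (37951 CPM). At SCI day 14 they were 21301 CPM in replicate 1 and 20660 CPM in replicate 2. The 4 fibroblast markers were highest in the same libraries as the Schwann cell markers at SCI day 3 (4415 CPM), SCI day 7 (1651 CPM) and in sham (1831 CPM), and in replicate 3 at SCI day 14 (1815 CPM). Neuron markers were lowest in replicate 3 at SCI day 3 (174 CPM), in replicate 2 at SCI day 7 (1385 CPM), in replicate 2 at SCI day 14 (679 CPM) and in replicate 2 of sham (1859 CPM). The 4 endothelium markers were highest in replicate 1 at SCI day 3 (1175 CPM) and replicate 3 at SCI day 7 (515 CPM). At SCI day 14 and in sham they were highest in replicate 2 (410 and 280 CPM). The 22 other immediate early genes were highest in replicate 3 at SCI day 3 and day 7 (1930 and 727 CPM). In SCI day 14 and sham they were highest in replicate 2 (694 and 401 CPM). Microglia and macrophage markers were highest in the library of most subunits only at SCI day 14. The part of these cell types in the subunits' levels was not tested.

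**Figure D4:**
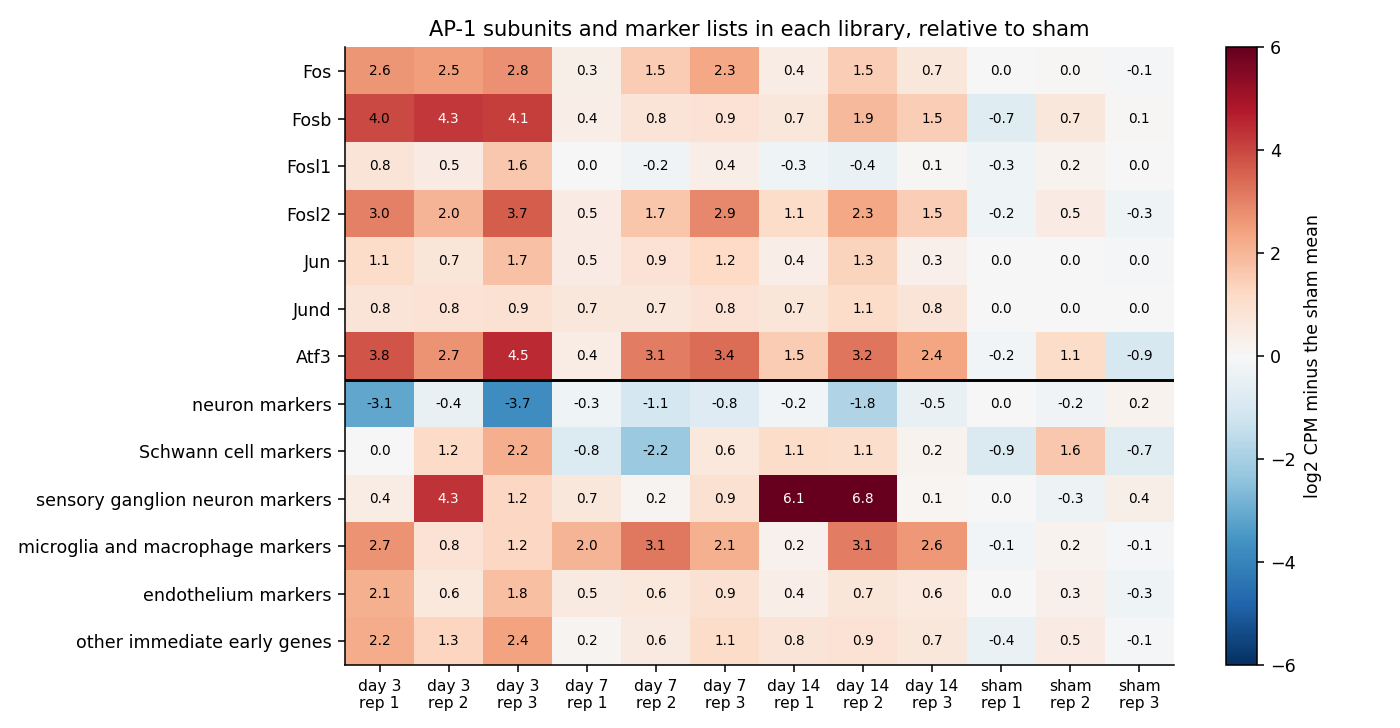
Log2 CPM minus the sham mean for each subunit, and the mean of the same quantity over marker lists and other immediate early genes, in the 12 libraries. Jund stood between 0.7 and 1.1 in all 9 SCI libraries, whereas neuron markers were at -3.1, -0.4 and -3.7 in replicates 1, 2 and 3 of SCI day 3.

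Likeness of pattern was measured as the root mean square difference, over the 12 libraries, of log2 CPM relative to each gene's own sham mean. Among the subunits the closest pair was Jun and Jund, at 0.34 log2 units, followed by Fos and Fosl2 at 0.56, and the farthest was Fosl1 and Atf3 at 2.33. Small differences are usual for genes that change little, and 197 genes were nearer to Jun than Jund was. Likewise, 78 genes were nearer to Fos than Fosl2 was. For Fos the nearest genes were Trib1 (0.32), Tnfrsf1a (0.35) and Ier5l (0.35), and for Fosl2 they were Sphk1 (0.25), Icam1 (0.29) and Zfp36 (0.31). Atf3 was nearest to Ifitm1 (0.32), Enpp3 (0.44) and Osmr (0.55), the last of which encodes the oncostatin M receptor. Fosb had no gene as near, with Cst7 at 0.77, Edn1, which encodes endothelin 1, at 0.80 and Tmem88 at 0.82. Cst7 averaged 0.165 CPM in sham, so its distance depends in part on the prior count of 2. Jun was nearest to Trim21 (0.19), Fbxo4 (0.20) and Rbms1 (0.22), Jund to Rac1 (0.20), Traf3ip2 (0.20) and Plat (0.21), and Fosl1 to Qtrt2 (0.21), Dusp14 (0.22) and Rrp15 (0.22).

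Of the other proteins that can pair with or compete with AP-1 subunits, 4 of 23 rose and 0 fell at SCI day 3. Their median log2 fold change was 0.76. Of all genes tested, edgeR called 5.50% higher and 1.20% lower. Maff, a small Maf protein, averaged 78.9 ± 49.4 CPM at SCI day 3 and 2.40 ± 0.258 CPM in sham (SD, n = 3 each), a log2 difference of 5.04 ± 0.70 (SE; adjusted p = 0.0294 by edgeR), a larger fold change than that of any AP-1 subunit. Mafk, another small Maf protein, rose by 1.95, Atf1 by 1.15 and Atf4, the effector of the integrated stress response, by 0.95 log2 units (0.0369, 0.0369 and 0.0483 as edgeR adjusted p). At SCI days 7 and 14, 0 of the 23 passed, where edgeR called 0.0160% of all genes higher and 0 lower on each day. The median log2 fold changes of the list were 0.26 and 0.37.

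Upstream of AP-1, 5 of 31 kinases and factors rose and 0 fell at SCI day 3, against 5.50% and 1.20% of all genes. Their median log2 fold change was -0.06 against 0.03 over all genes. Srf, the serum response factor that drives Fos, averaged 63.8 ± 19.6 CPM at SCI day 3 and 29.8 ± 2.34 CPM in sham (SD, n = 3 each; edgeR adjusted p = 0.0358). The Srf partner Elk3 rose by 1.61, the kinase Rps6ka3 by 1.08 and the p38 pathway kinase Map2k3 by 1.47 log2 units (0.0387, 0.0369 and 0.0378 as edgeR adjusted p). Of the 31, 13 had a log2 fold change above 0. Among the rest, the kinases Mapk8, Mapk9, Mapk10 and Map2k4 had -0.56, -0.87, -1.27 and -0.99, without a call by edgeR. These lists hold levels of transcripts, and the phosphorylation through which such kinases act was not measured.

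Genes known from textbooks as AP-1 targets rose in 12 of 24 at SCI day 3 and fell in 0. Of all genes tested, 5.50% were called higher and 1.20% lower. The targets' median log2 fold change was 3.23. It was unchanged with Mmp12 and Il6, which had no counts in sham, set to lower bounds that give sham 3 counts in all. Timp1, an inhibitor of matrix metalloproteinases, averaged 246 ± 172 CPM at SCI day 3 and 11.3 ± 9.27 CPM in sham, and Cd44, the hyaluronan receptor, 177 ± 89.9 CPM at SCI day 3 and 25.3 ± 2.21 CPM in sham (SD, n = 3 each; edgeR adjusted p = 0.0324 for both). The growth factor Fgf2 rose by 2.45 and the heme-degrading enzyme Hmox1 by 4.04 log2 units (0.0324 and 0.0338 as edgeR adjusted p). Other immediate early genes rose in 15 of 22 and fell in 0, against the same shares of all genes, with a median of 2.05. Maff, counted above among the dimer partners, is also on this list and had its smallest p. Egr1 averaged 127 ± 61.3 CPM at SCI day 3 and 30.6 ± 6.10 CPM in sham, and Egr3 8.04 ± 1.15 CPM at SCI day 3 and 2.51 ± 0.408 CPM in sham (SD, n = 3 each; edgeR adjusted p = 0.0324 for both), while Ier2 rose by 2.20 log2 units (0.0324 as edgeR adjusted p). At SCI days 7 and 14, 0 of either list passed, where edgeR called 0.0160% of all genes higher and 0 lower on each day. The median log2 fold changes on those days were 1.96 and 1.55 for the targets and 0.36 and 0.85 for the other immediate early genes.

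Genes that injured neurons switch on together with Atf3 and Jun rose in 4 of 20 and fell in 0 at SCI day 3. Of all genes tested, 5.50% were called higher and 1.20% lower. The list's median log2 fold change was 0.62, unchanged with Csrp3, which had no counts in sham, at its bound. Klf6 rose by 2.30, the small heat shock protein Hspb1 by 2.74, Smad1 by 1.02 and Sox11 by 1.39 log2 units (0.0332, 0.0338, 0.0361 and 0.0498 as edgeR adjusted p). In all, 11 of the 20 had a log2 fold change above 0 at SCI day 3. Among the rest, Tubb3 had -1.36, Stmn2 -1.27, Stmn4 -1.01, Ecel1 -1.12, Cck -1.37 and Nts -1.56, without a call by edgeR. The part of neurons in the values of this list was not tested. At SCI days 7 and 14, 0 of the 20 passed, where edgeR called 0.0160% of all genes higher and 0 lower on each day. The median log2 fold changes were 0.04 and 0.38, and Hspb1 had 2.94 at SCI day 7.

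**Figure D5:**
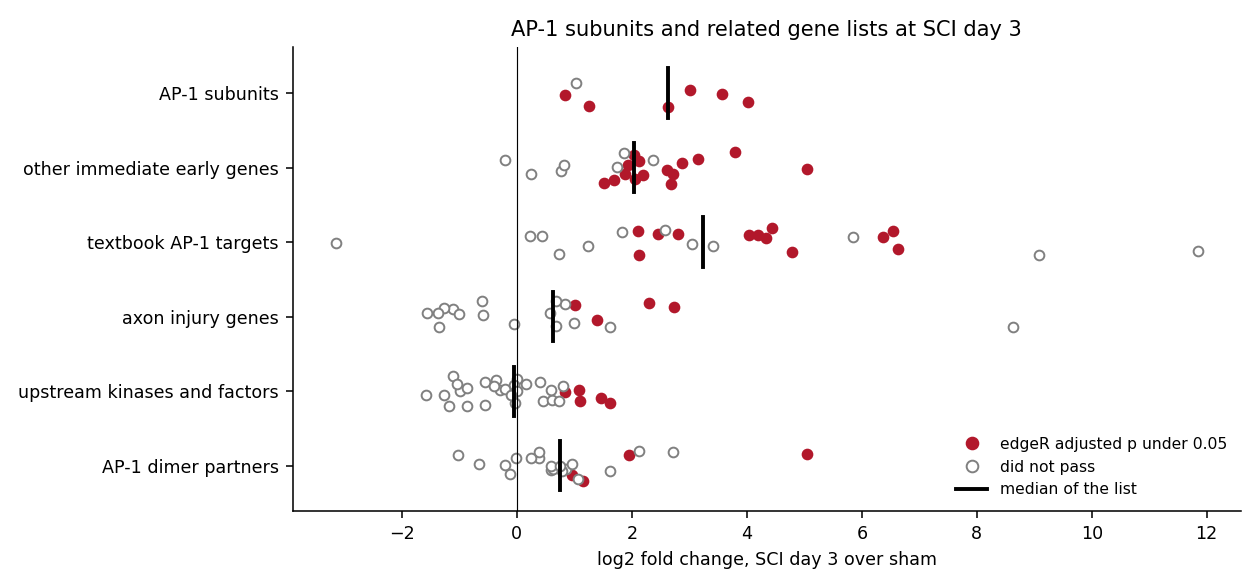
Log2 fold change at SCI day 3 over sham for the 7 AP-1 subunits and 5 related lists (1 point a gene, spread vertically for view), with a bar at each median; the fitted values of Mmp12, Il6 and Csrp3, which had no counts in sham, depend on the prior count. The medians of the AP-1 subunits (2.63), the targets (3.23) and the other immediate early genes (2.05) lay above those of the dimer partners (0.76), the axon injury genes (0.62) and the upstream kinases and factors (-0.06).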

How the data were processed

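RNA was purified on columns and sequenced after SMARTer mRNA-Seq library preparation, per the labels' protocols. The authors' counts are unnormalized reads assigned to each gene, per the file headers, and the deposited FPKM are counts that the authors scaled by gene length and library total, per the file headers. FPKM were used only to set levels of different genes side by side and were not tested. They were proportional to counts within 0.398% over 9502 genes with over 500 counts in every library. The sources used here do not give the aligner, the counter, the use of strand or the treatment of reads matching several genes, so overlapping genes and near-identical copies are uncertain. The submitters' processing notes list mouse builds (GRCm38, mm10), while gene identifiers are rat Ensembl ones, so only chromosome names, and not coordinates, were taken from the table.

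A symbol with several rows was taken at the row with most counts. The filterByExpr filter by group left 18714 of 23526 genes, which held at least 99.983% of each library's counts. Counts were scaled with TMM factors and fitted with 1 mean per group to all 12 libraries (residual df 8) with R 4.3.3 and edgeR 4.0.16, and p-values were adjusted over all genes tested with a limit of 0.05. Each SE was derived from the fold change and its F statistic, as log2 change over root F, and restates the test. Log2 CPM used a prior count of 2. The closest libraries differed by a chi-square of 60.3 per gene, so none was a copy. The alternatives were DESeq2 1.42.0, limma 3.58.1 voom with sample weights, other scalings and filters, the replicate number as a block, only the groups compared, and libraries left out. The fits were tested on simulated data. Correlations of same-numbered libraries' deviations were over 0.1 in 6 of 18 pairs, so the numbers were not taken as pairs.

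The members and lists were chosen with earlier results of these data known. All members are named in each comparison, with the 3 genes nearest in pattern to each and up to 4 genes of each related list with the smallest p at day 3 among those that passed. Mmp12, Il6 and Csrp3 were named after their values were seen.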

Additional observations from a re-analysis of the deposited data

How the results depend on the processing

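Of 924 fold changes of the 7 subunits under other settings, 820 kept their direction and their side of the limit, 63 kept their direction and lost the call, 24 gained it and 17 changed sign, all 17 without a call in either setting. With each library left out in turn, members called ran from 0 to 7 at SCI day 3 against sham (all genes, 1 to 7087). They ran from 0 to 2 at SCI day 7 against SCI day 3 (all genes, 0 to 3605). At SCI day 14 against SCI day 3 they ran from 0 to 3 (all genes, 0 to 4342). In the 4 groups together they ran from 0 to 7 (all genes, 0 to 4330). They were 0 in the other comparisons, where at most 7 genes were called in all. At SCI day 3 against sham 1 member was called in a fit of only the groups compared (Fos) and 1 with the replicate block (Fosb). Fits without both day 3 libraries low in neuronal transcripts, or both day 14 libraries with sensory ganglion transcripts, left 1 library in a group. Their calls are not given. The replicate block called 8 genes in all at day 3. At SCI day 7 against SCI day 3 it called 1 gene in all, Fosb. Each library was most like its own number in 13 of 36 cases. At SCI day 7 against sham DESeq2 called 4, voom 1 and the groups compared alone 1, among 512, 276 and 89 genes in all. At SCI day 14 against sham DESeq2 and voom called 1 each, among 207 and 9. At SCI day 7 against SCI day 3 DESeq2 and voom called 1 each, among 241 genes and 1 gene in all. At SCI day 14 against SCI day 3 DESeq2 called 3, among 1096. In the 4 groups together DESeq2 and voom called 7 each, among 2645 and 3116 genes in all. Over all genes, edgeR called 1254 at SCI day 3, 1066 with DESeq2's scaling, 733 without a filter and 1658 with a 1 CPM filter. DESeq2 called 5150 and voom 6232, and edgeR called 1 in the groups compared alone. Jun was not called by edgeR with DESeq2's scaling or without a filter, and Fosl1 was called with the 1 CPM filter. The causes were not tested.

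Sign changes with single libraries left out gave ranges of -0.14 to 0.18 for Fosl1 at SCI day 7 against sham, -0.70 to 0.56 for Fosl2, -0.55 to 0.0848 for Jun, -0.0188 to 0.21 for Jund and -0.78 to 0.23 for Atf3 at SCI day 14 against SCI day 7, and -0.0943 to 0.10 for Jund at SCI day 14 against SCI day 3. Without both day 3 libraries low in neuronal transcripts, Jun and Atf3 had 0.13 and 0.0561 at SCI day 7 and Jun 0.0218 at SCI day 14 against SCI day 3. Without both day 14 libraries with sensory ganglion transcripts, Fosl1 had 0.0658 against sham and Jund -0.0922 against SCI day 3, and voom gave Jund -0.0177 there. CPM in place of FPKM, which leaves out gene length, moved the share of the summed level held by Fos to 17.7% at SCI day 3 and 8.14% in sham, by Jund to 19.1% and 30.2%, by Fosl1 to 13.8% and 20.3%, and by the Fos family to 46.1% and 33.1%, and to 28.2% at SCI day 14. The lowest count of a subunit in a library was 57, for Fosb in sham replicate 1. An effect of depth was not tested.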

Other observations

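Ratios between related subunits within a library, which do not depend on library scaling, also differed between groups. Fosb FPKM were 9.41%, 12.8% and 9.68% of Fos FPKM in SCI day 3 replicates 1, 2 and 3, 1.33% to 3.82% at SCI day 7 and 4.35% to 6.58% at SCI day 14, against 2.14% to 5.74% in sham. The SCI day 3 libraries lay above all others. At SCI day 7 the ratio was lowest in replicate 3, where Fos was highest. Fosl2 FPKM were 36.9% to 61.9% of Fosl1 FPKM at SCI day 3, 18.5% to 71.5% at SCI day 7 and 34.1% to 87.1% at SCI day 14, against 10.4% to 15.7% in sham, with no SCI library inside the sham range. Fos FPKM were 89.0% to 104% of Jund FPKM at SCI day 3, 22.7% to 79.3% at SCI day 7 and 23.5% to 36.6% at SCI day 14, against 26.7% to 30.4% in sham. These ratios were looked at after the values were seen, and no test was run on them.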
